A study of Mus musculus with 9 samples.

Results

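A set of 10 genes that mark mast cells was followed in RNA sequencing libraries of mouse ear dermis: the proteases Mcpt4, Cma1, Tpsb2, Tpsab1 and Cpa3, the receptors Kit, Fcer1a, Ms4a2 and Mrgprb2, and the histamine-forming enzyme Hdc. They were chosen by name out of the 52550 genes in the table, and all 10 were expressed highly enough to be tested. The study had 3 groups of 3 libraries from wild-type C57BL/6 mice (C57BL/6J in the methods), 8 weeks old by the labels and male by the methods. VAS+H2O mice had vaseline on the skin for 5 days and water by gavage for 10 days, IMQ+H2O mice had imiquimod cream in place of vaseline, and IMQ+XYF mice had imiquimod cream and, in place of the water, XYF (Xiao-Yin-Fang), a herbal decoction of Chinese medicine (200 μl at 23.3 mg/g). Gavage began 5 days before the cream, so that XYF was given ahead of the inflammation as well as during it, and every group was gavaged. Imiquimod, a ligand of a Toll-like receptor, makes mouse skin inflamed and scaly and is used as a model of psoriasis. The methods speak of RNA from ear sheets of 2 mice without saying whether each library pooled animals, so p-values measure the spread between these libraries.

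Mast cells live in the dermis along vessels and nerves and hold granules packed with proteases, histamine and heparin. Stem cell factor, the product of Kitl, keeps them alive through the receptor KIT. They empty their granules when an antigen joins the IgE on the high-affinity receptor FcεRI, which is built of the IgE-binding chain Fcer1a, the signal-amplifying chain Ms4a2 and the shared signalling chain Fcer1g. They also respond without IgE to peptides and cationic drugs, through the receptor encoded by Mrgprb2. Mouse connective tissue mast cells, the kind found in skin, store the chymases Mcpt4 and Cma1, the tryptases Tpsb2 and Tpsab1 and carboxypeptidase A3 (Cpa3), whereas Mcpt1 and Mcpt2 are the chymases of mucosal mast cells.

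The dermis held the connective tissue set. All libraries had between 20 and 10857 counts for each of the 10 genes, which together made up between 0.024% and 0.0759% of a library's counts. The mucosal chymases stood at 0 counts in 8 of the 9 libraries for Mcpt1 and reached at most 5 counts for Mcpt2. Basophils share several of these genes, and their own proteases reached at most 103 counts for Mcpt8 and 15 for Prss34, both in IMQ+XYF replicate 3. In that library Fcer1a had 139 counts, Ms4a2 117 and Mcpt4 8696. The part of basophils in the counts of the 10 genes was not tested.

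The proteases come from a pair of gene clusters. In the annotation of GRCm38 (GENCODE release M21), Cma1 (chr14:55941451-55944675) and Mcpt4 (chr14:56059629-56062313) are the members of a locus of 15 protein-coding protease genes on chromosome 14, both on the minus strand and 114953 bp apart. Levels are given as CPM, the counts of a gene relative to all counts of its library. Only 3 of these 15 genes reached a mean of 1 CPM, namely Mcpt4 at 125, Cma1 at 68.9 and Gzmb, a granzyme of cytotoxic lymphocytes, at 4.22. Of the other 12 genes, 5 had at most 3 counts in every library. The tryptases lie on chromosome 17, Tpsab1 (chr17:25343245-25345562) on the minus strand and Tpsb2 (chr17:25366305-25369098) on the plus strand, 20742 bp apart, beside Tpsg1, a membrane-bound tryptase with a mean of 2.18 CPM. Neither locus was used as a whole in these libraries. Mcpt2, the next protease gene to Mcpt4 on one side, had a mean of 0.03 CPM, and Mcpt8, on the other side, 0.603 CPM.

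**Figure D1:**
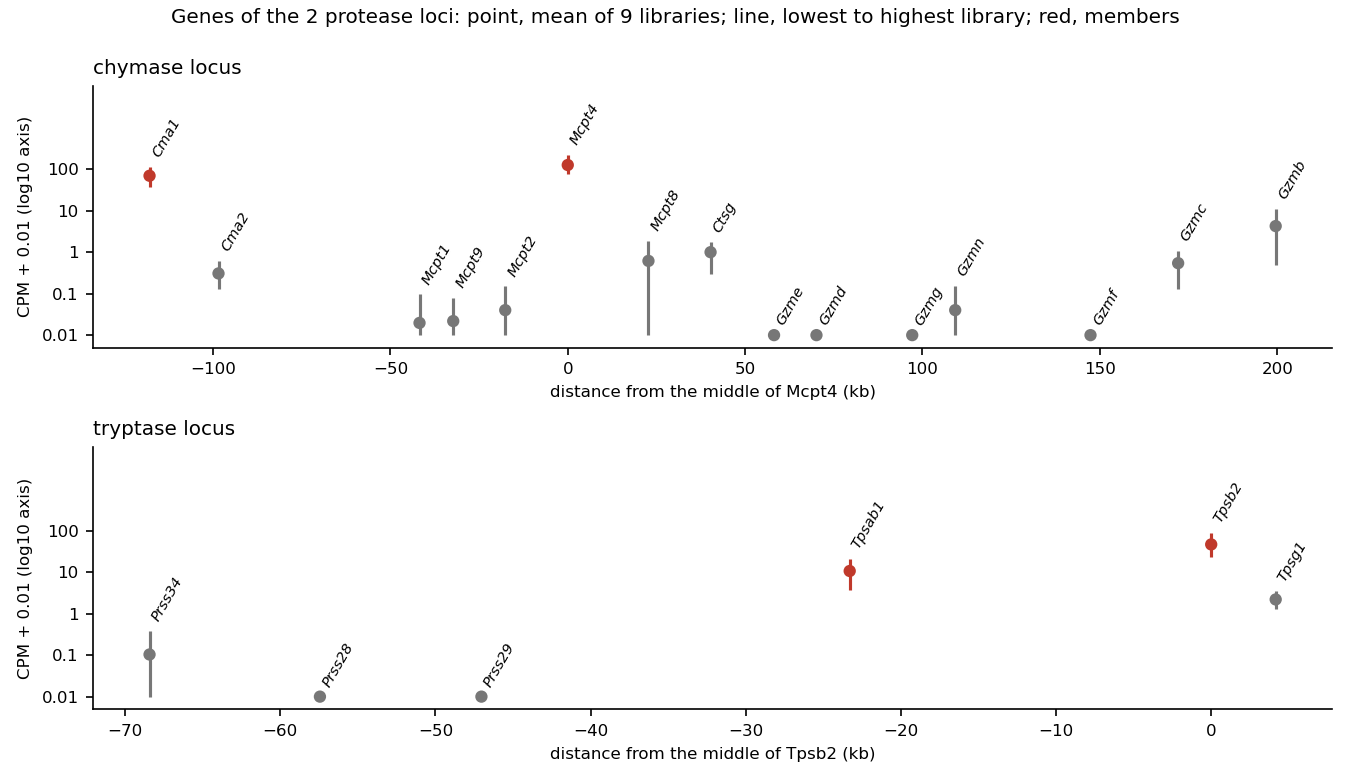
CPM of each protein-coding gene of the chymase locus (above, distance from Mcpt4 in kb) and of the tryptase locus (below, distance from Tpsb2 in kb), on a log10 axis after adding 0.01. Points are means of 9 libraries and lines run from the lowest to the highest library. Mcpt4, Cma1, Tpsb2 and Tpsab1, in red, stand above every neighbour.

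Because these genes arose by duplication, reads could in principle be shared between copies, and how the authors' counting treated such reads was not given in the sources used here. The aligned coding sequences of Tpsb2 and Tpsab1 were identical at 75% of bases, with no identical run longer than 39 bases. Cma1 and Mcpt4 were identical at 66.7%. Mcpt4 was closer to copies that were hardly counted, at 86.5% to Mcpt1 and 84.1% to Mcpt9. By identity its counts are thus the least certain of the 4 proteases. Of the 50-base windows of its coding sequence, 0% occurred in Mcpt1 and 1.01% in Mcpt9. A stretch of 120 bases from the same part of both tryptase coding sequences (GENCODE release M21, longest open reading frame) is shown. It was picked as the stretch without gaps that differs most, so other parts are more alike. The 51 bases that differ are in capitals, since by such bases a read can be given to either tryptase.
Tpsb2: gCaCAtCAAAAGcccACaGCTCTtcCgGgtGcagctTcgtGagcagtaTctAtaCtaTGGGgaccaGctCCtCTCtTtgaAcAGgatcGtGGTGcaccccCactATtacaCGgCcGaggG
Tpsab1: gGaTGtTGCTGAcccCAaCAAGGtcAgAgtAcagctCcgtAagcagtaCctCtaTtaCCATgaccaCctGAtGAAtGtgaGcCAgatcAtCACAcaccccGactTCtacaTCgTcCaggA

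GATA factors, of which GATA2 is needed by mast cells, bind words with GATA in their middle. RefSeq promoters of GRCm38.p6 were at hand for 8 members, all but the tryptases. The words AGATAA and TGATAA were searched on both strands in the 250 bases before the start of each gene. A word stood in 5 of the 8 promoters, those of Fcer1a, Cpa3, Mrgprb2, Mcpt4 and Ms4a2, against 16.6% of 32851 promoters searched in the same way. CATGTG and CACGTG, E-box words of the kind bound by MITF, a factor of mast cells and melanocytes, stood in 1 of the 8 (Fcer1a) against 17.6% of all. A match is only a run of letters. Shown in the direction of transcription are a protease and a receptor that carry searched GATA words, in capitals (TTATCT is AGATAA read on the other strand). Also shown is Cma1, which carries none of the searched words and lies in the same locus as Mcpt4. TATC, which is GATA read on the other strand, does occur in the Cma1 promoter with other bases around it.
Mcpt4 (chr14:56062311-56062560, minus strand): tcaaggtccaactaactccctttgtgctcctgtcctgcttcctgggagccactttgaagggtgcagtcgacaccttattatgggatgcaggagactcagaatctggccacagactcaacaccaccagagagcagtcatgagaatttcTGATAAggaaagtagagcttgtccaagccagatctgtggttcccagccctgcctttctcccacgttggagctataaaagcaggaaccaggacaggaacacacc
Ms4a2 (chr19:11623720-11623969, minus strand): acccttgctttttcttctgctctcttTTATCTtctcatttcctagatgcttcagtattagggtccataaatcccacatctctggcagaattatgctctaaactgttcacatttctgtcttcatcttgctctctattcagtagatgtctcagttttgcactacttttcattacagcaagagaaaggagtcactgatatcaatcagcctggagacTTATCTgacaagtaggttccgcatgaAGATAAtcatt
Cma1 (chr14:55944676-55944925, minus strand): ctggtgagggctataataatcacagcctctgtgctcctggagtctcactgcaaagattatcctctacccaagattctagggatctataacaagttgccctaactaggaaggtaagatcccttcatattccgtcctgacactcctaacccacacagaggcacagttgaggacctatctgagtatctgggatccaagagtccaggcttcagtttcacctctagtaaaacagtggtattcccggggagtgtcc

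The libraries held between 28756305 and 79836881 counts, of which 8.21% to 14.3% came from mitochondrial genes. Values in CPM were scaled by TMM factors. A gene was called when its adjusted p in edgeR's quasi-likelihood test was 0.05 or less and its log2 fold change 1 or more in size, over 22430 genes tested. Other tissue in the ear varied with the groups. Hair shaft keratins summed to between 14.3 and 58.3 CPM in VAS+H2O and to at most 0.146 CPM in the other groups. Epidermal markers summed to 1980 to 2980 CPM in IMQ+H2O and to 3620 to 13900 CPM in IMQ+XYF, and skeletal muscle markers to 1030 to 2220 and 96.3 to 652 CPM. Cartilage markers summed to 1010 to 1850 CPM in VAS+H2O, 280 to 453 in IMQ+H2O and 572 to 1780 in IMQ+XYF. The part of these differences in the results below was not tested. In whole dermis, fewer mast cells and less RNA per mast cell cannot be told apart.

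Per kilobase of exon, the order of levels was headed by the same genes in every group. Mcpt4 led with 117 ± 38.7 CPM per kb in VAS+H2O (mean ± SD, n = 3 here and below), 124 ± 63.8 in IMQ+H2O and 98.6 ± 29.2 in IMQ+XYF. Cma1, Cpa3 and Tpsb2 followed in this order, at 65.8 ± 17.8, 47.6 ± 16.9 and 28.8 ± 8.34 CPM per kb in VAS+H2O. Hdc and then Tpsab1 came next in each group. The libraries of neighbours in the order overlapped among Mcpt4, Cma1, Cpa3 and Tpsb2, except that Mcpt4 stood clear of Cma1 in IMQ+XYF. The receptors filled the last 4 places at 0.55 to 3.98 CPM per kb. Their order differed with the group: Ms4a2 was eighth in VAS+H2O at 2.93 ± 1.56 CPM per kb and last in IMQ+XYF at 0.55 ± 0.146, and Fcer1a was last in VAS+H2O at 1.3 ± 0.911 and seventh in IMQ+H2O at 3.98 ± 1.4.

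Mcpt4, the chymase held to do the work of human chymase, stood at 80.8, 162 and 145 CPM in replicates 1, 2 and 3 of VAS+H2O, at 91.7, 219 and 102 in IMQ+H2O and at 110, 76.4 and 141 in IMQ+XYF. The groups overlapped throughout, and single libraries of 1 group differed more than the group means. Cma1, the other chymase, had 50.7, 89 and 75.6 CPM in VAS+H2O, 50, 114 and 74.6 in IMQ+H2O and 55.1, 37.7 and 73.5 in IMQ+XYF. Tpsb2, the main tryptase, had 32.9, 59.4 and 45.2 CPM in VAS+H2O, 39.8, 89.2 and 47.4 in IMQ+H2O and 32, 23 and 48.3 in IMQ+XYF. Cpa3, which trims the C-terminal ends of peptides, had 45.9, 97.2 and 73.7 CPM in VAS+H2O, 45.1, 117 and 56.5 in IMQ+H2O and 46.9, 39 and 55.2 in IMQ+XYF. In every group these 4 proteases ranked the 3 libraries in the same order.

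Tpsab1, the second tryptase, had 8.61, 20.8 and 10.7 CPM in VAS+H2O, 9.4, 15.9 and 12 in IMQ+H2O and 5.43, 3.74 and 9.3 in IMQ+XYF. Every IMQ+XYF library was below every IMQ+H2O library, by a narrow margin between 9.3 and 9.4 CPM. Kit, the receptor for stem cell factor, had 26.8, 32.4 and 25.8 CPM in VAS+H2O, 22.4, 37.6 and 20.9 in IMQ+H2O and 15.5, 18.1 and 19.3 in IMQ+XYF. Its 3 IMQ+XYF libraries were the lowest of the 9.

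Ms4a2, the FcεRI chain that amplifies the signal, had 3.15, 10.8 and 10.7 CPM in VAS+H2O, 4.2, 17.2 and 6.24 in IMQ+H2O and 1.1, 1.65 and 1.9 in IMQ+XYF. The IMQ+XYF libraries rested on 88, 81 and 117 counts and lay below every library of both other groups. Fcer1a, the chain that binds IgE, had 0.485, 2.28 and 1.13 CPM in VAS+H2O, 2.58, 5.39 and 3.94 in IMQ+H2O and 1.16, 1.38 and 2.26 in IMQ+XYF. Every IMQ+H2O library was above every library of both other groups, which overlapped each other. Both chains were lower in every IMQ+XYF library than in any IMQ+H2O library, as were 8.74% of all genes. Fcer1a was higher in every IMQ+H2O library than in any VAS+H2O library, as were 15.1% of all genes. Ms4a2 was lower in every IMQ+XYF library than in any VAS+H2O library, as were 10.3%. The chains were not tested against each other.

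Mrgprb2, the receptor for peptides and cationic drugs, had 2.21, 4.06 and 2.87 CPM in VAS+H2O, 2.79, 5.7 and 3.32 in IMQ+H2O and 1.62, 1.06 and 2.26 in IMQ+XYF. The IMQ+XYF libraries were all below those of IMQ+H2O, and the highest of them overlapped VAS+H2O. Hdc, which makes histamine from histidine, had 28, 74.9 and 54.2 CPM in VAS+H2O, 60.1, 112 and 130 in IMQ+H2O and 63.7, 34.8 and 108 in IMQ+XYF. Its groups overlapped in all comparisons.

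**Figure D2:**
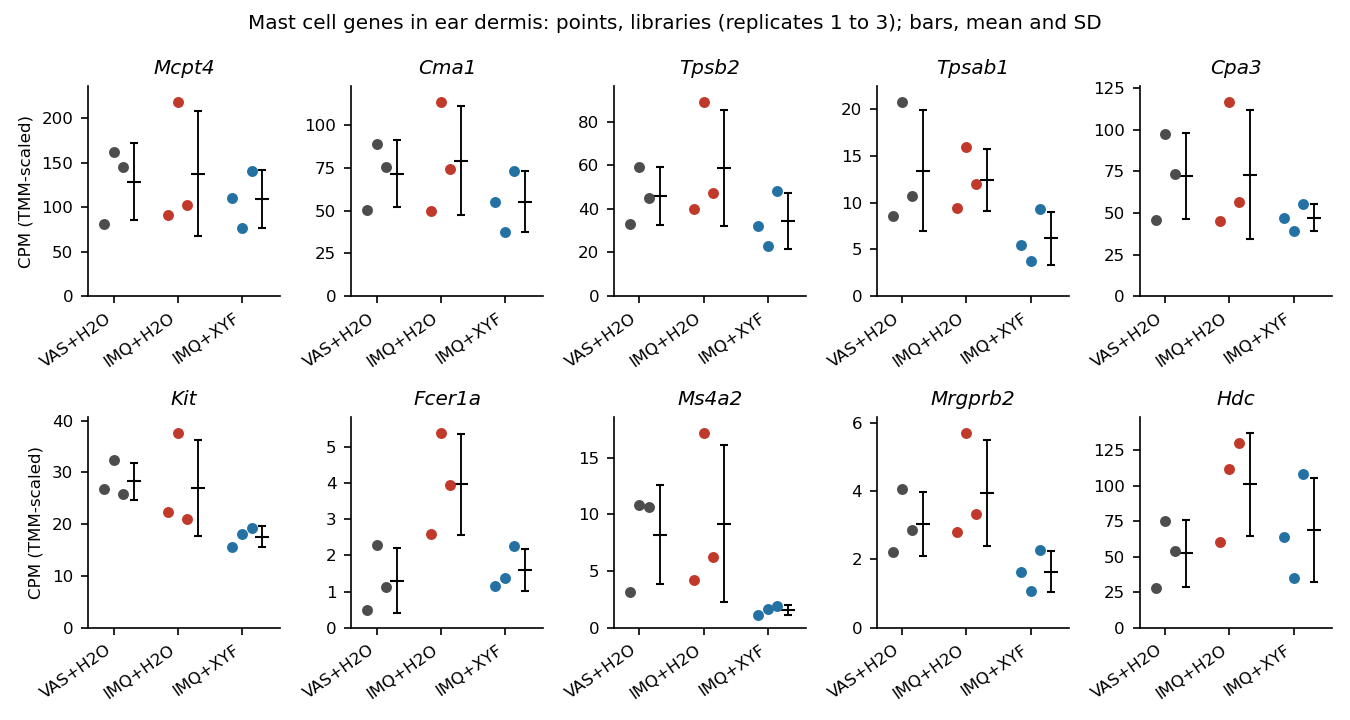
CPM of the 10 mast cell genes in each library, with replicates 1 to 3 from left to right in each group and the mean ± SD (n = 3) beside them. IMQ+H2O replicate 2 is the highest library of all for 8 of the 10 genes, and Ms4a2 in IMQ+XYF lies below all other libraries.

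The genes varied together between libraries of the same group. IMQ+H2O replicate 2 was the highest of the 9 libraries for 8 of the 10 genes, the exceptions being Tpsab1 and Hdc. VAS+H2O replicate 2 was the highest of its group for all 10, and IMQ+XYF replicate 3 likewise. Over the 9 libraries, Pearson's r of log2 CPM between pairs of the genes ran from 0.15 (Kit and Hdc) to 0.96 (Cma1 and Tpsb2), with a median of 0.77 over 45 pairs. Of deviations from the group means, the median r was 0.82. Each gene's r with the mean of the other 9 was highest for Tpsb2 (0.97), Mrgprb2 (0.95) and Cma1 (0.94) and lowest for Fcer1a (0.64), Hdc (0.66) and Kit (0.75). The points share their library and its tissue mix, so these values are descriptions only.

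The genes most like the set were sought among 14499 others with a mean of at least 1 CPM, by r with the mean centred log2 CPM of the 10. Slc18a2, the vesicle transporter that loads histamine and serotonin into granules, came first with r of 0.972 and a mean of 7.27 CPM. Next were Synj1 (0.963), a phosphatase of vesicle traffic, and Flt3 (0.962), a receptor of dendritic cells and their precursors. Apobec1 (0.958), an RNA-editing enzyme, and Laptm5 (0.945), a lysosomal protein of blood cells, followed. Kcnq1 (0.942), a potassium channel, Arhgap25 (0.940), a Rac-inactivating protein of blood cells, and Lrmp (0.938), a membrane protein of lymphoid cells, closed the list. Mean levels ran from 2.45 CPM for Kcnq1 to 69.3 CPM for Laptm5. The highest CPM over the lowest was 10.7 against 4.13 for Slc18a2 and only 45.9 against 36.6 for Synj1.

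Imiquimod was compared with vaseline to ask what the inflammation did to these genes. The group means of most of them were close. Fcer1a had the largest difference, with a mean of 3.97 CPM in IMQ+H2O against 1.3 in VAS+H2O, a log2 fold change of 1.63 ± 0.53 (SE), or 3.09 times, and Hdc came next with 101 against 52.4 CPM and 0.94 ± 0.48. The other 8 genes had log2 fold changes from -0.10 (Tpsab1) to 0.37 (Mrgprb2). None of the 10 was called by edgeR, where 0.994% of all genes were called. Fcer1a alone had an unadjusted p under 0.05 (0.0142, adjusted p = 0.143 by edgeR's quasi-likelihood test), as had 20.9% of all genes. DESeq2, the tool of the study, called Fcer1a (adjusted p = 0.0333) and none of the others, against 3.8% of all genes with an adjusted p. One gene, Fcer1a, had higher values in every IMQ+H2O library, as had 15.1% of all genes, and none had lower values in every one, as had 16.5%.

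The fold change of Fcer1a without 1 library ran from 1.23 (without VAS+H2O replicate 1) to 2.27 (without VAS+H2O replicate 2) and was above 0 each time. Hdc is also made by neutrophils, and 12 neutrophil markers summed to between 7.71 and 26.9 CPM in VAS+H2O and between 213 and 675 CPM in IMQ+H2O (175 to 485 CPM in IMQ+XYF). Fcer1a is also made by basophils and by some dendritic cells. Mcpt8, the basophil protease, had 0, 2 and 8 counts in VAS+H2O, 4, 33 and 97 in IMQ+H2O and 25, 22 and 103 in IMQ+XYF. Of the other basophil markers, Prss34 had no count in VAS+H2O and at most 11 in IMQ+H2O, and Cd200r3, shared with mast cells, had 1.79 to 3.42 CPM in IMQ+H2O against 2.16 to 3.39 in VAS+H2O. The 7 dendritic cell markers summed to 27 to 48.2 CPM in VAS+H2O and 30.8 to 50.4 in IMQ+H2O. With imiquimod, cartilage markers had a median log2 fold change of -2.23, endothelium 0.73, smooth muscle 0.92 and monocytes and macrophages 0.45. The part of these cells and tissues in the values of Hdc, Fcer1a and the other mast cell genes was not tested.

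The protease values in this comparison hung on single libraries. Without IMQ+H2O replicate 2, the log2 fold changes of Mcpt4, Cma1, Tpsb2, Cpa3 and Ms4a2 turned from positive to negative, to between -0.66 (Ms4a2) and -0.07 (Tpsb2). Mcpt4, Cma1, Cpa3 and Ms4a2 turned likewise without VAS+H2O replicate 1, the lowest of its group for 9 of the 10 genes. The median of the 10, 0.15 with all libraries, was -0.26 and -0.08 in these fits, and it was 0.38 without VAS+H2O replicate 2, 0.26 without VAS+H2O replicate 3, 0.45 without IMQ+H2O replicate 1 and 0.34 without IMQ+H2O replicate 3.

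XYF in imiquimod-treated dermis was compared with water to ask what the decoction did to the inflamed skin. All 10 genes had lower group means in IMQ+XYF, with a median log2 fold change of -0.70 against 0.005 over all genes. Of the receptors, 3 of 4 had the largest differences. Ms4a2 had 1.55 CPM against 9.2, a log2 fold change of -2.58 ± 0.63, or 5.96 times lower, followed by Fcer1a at -1.31 ± 0.52 and Mrgprb2 at -1.26 ± 0.38. The tryptase Tpsab1 was at -1.01 ± 0.41 and Kit at -0.61 ± 0.22. The remaining proteases and Hdc were between -0.77 (Tpsb2) and -0.33 (Mcpt4).

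None of the 10 was called by edgeR between IMQ+XYF and IMQ+H2O, where only 0.00892% of all genes were called, 2 genes in all. Unadjusted p was under 0.05 for 5 of the 10, Ms4a2 (0.00275), Mrgprb2 (0.00969), Kit (0.0237), Fcer1a (0.034) and Tpsab1 (0.0379), against 11.7% of all genes. Their adjusted p-values ran from 0.36 (Ms4a2) to 0.403 (Tpsab1) by edgeR. The 10 genes varied together, so they are not 10 separate observations beside that share. The count under 0.05 was 2 without IMQ+H2O replicate 2 and 7 without IMQ+H2O replicate 1. DESeq2 called Ms4a2 (adjusted p = 0.00267) and none of the other 9, against 1.17% of all genes. The same 5 genes had lower values in every IMQ+XYF library than in any IMQ+H2O library, as had 8.74% of all genes. None had higher values in every one, as had 9.22%.

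The size of these differences rested in part on IMQ+H2O replicate 2, the library with the largest share of counts from the 10 genes. Without it the median was -0.40, and without IMQ+XYF replicate 3 it was -1.06. Without IMQ+H2O replicate 2, Ms4a2 was at -1.76, Fcer1a at -1.03, Mrgprb2 at -0.89 and Kit at -0.29, while Mcpt4 turned to 0.17 and Cpa3 came to -0.11. Ms4a2 ran from -2.92 to -1.76 over the 9 fits that left out 1 library. Kit is also made by melanocytes, whose 9 markers summed to 100 to 145 CPM in IMQ+H2O and 55.7 to 123 in IMQ+XYF. The largest part of these sums was Sox10, at 65 to 78.8 CPM in IMQ+H2O and 31.6 to 58.4 in IMQ+XYF. The median log2 fold change of the 9 markers was -0.41, and no melanocyte marker was called by edgeR or DESeq2 or had an unadjusted p under 0.05. Of other markers, the median was -1.72 for skeletal muscle, -1.07 for smooth muscle, -0.63 for endothelium, 1.58 for cartilage and 1.41 for epidermis. All 8 monocyte and macrophage markers were below 0, with a median of -0.51. The part of these cells and tissues in the values of the mast cell genes was not tested.

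**Figure D3:**
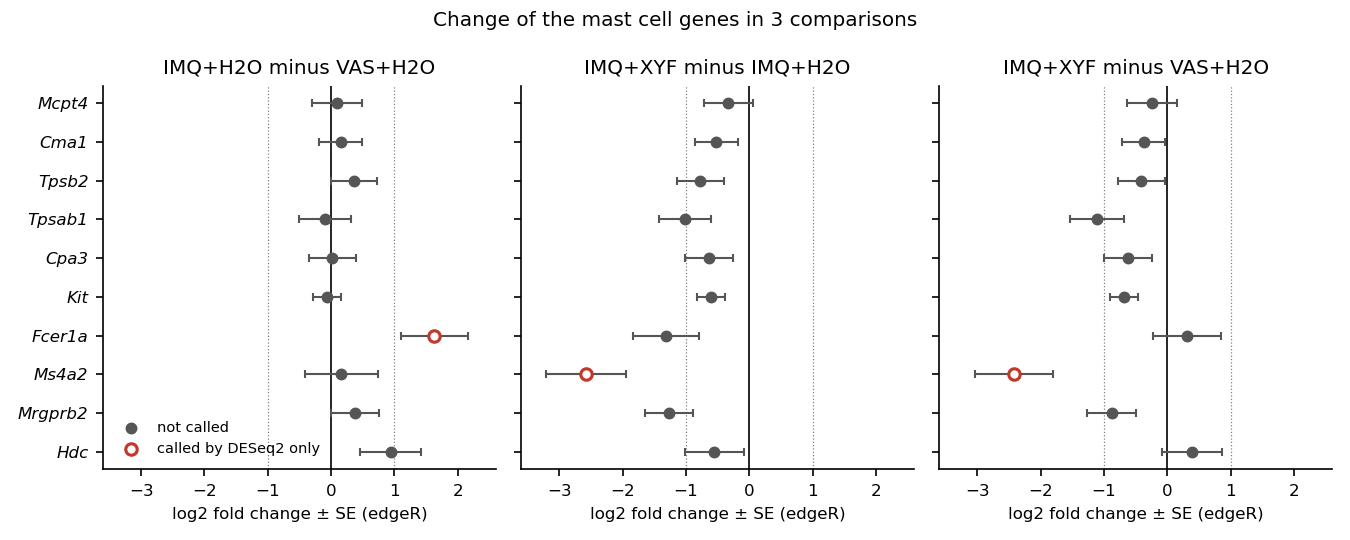
Log2 fold change ± SE of the 10 mast cell genes in edgeR for the 3 comparisons, with dotted lines at -1 and 1. Open red circles mark the genes that DESeq2 called and edgeR did not, which are Fcer1a for imiquimod and Ms4a2 in both comparisons of IMQ+XYF, and all 10 values lie below 0 for IMQ+XYF against IMQ+H2O.

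IMQ+XYF was compared with VAS+H2O to ask where the treated, inflamed skin stood against plain skin. This comparison shares its libraries with both others. Ms4a2 had 1.55 CPM against 8.23, a log2 fold change of -2.42 ± 0.62, or 5.33 times lower. Tpsab1 was at -1.11 ± 0.42, Mrgprb2 at -0.88 ± 0.38 and Kit at -0.68 ± 0.22. Fcer1a (0.31 ± 0.53) and Hdc (0.39 ± 0.47) were the genes above 0, and the median of the 10 was -0.52 against -0.024 over all genes. Without VAS+H2O replicate 2 it was -0.27, and without IMQ+XYF replicate 2 it was -0.30.

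None of the 10 was called by edgeR between IMQ+XYF and VAS+H2O, against 1.2% of all genes, and Ms4a2 came nearest (adjusted p = 0.0848 by edgeR, unadjusted 0.0039). Unadjusted p was under 0.05 for 4 of the 10 (Ms4a2, Kit, Tpsab1 and Mrgprb2) against 18.3% of all genes. DESeq2 called Ms4a2 (adjusted p = 0.00128) and none of the others, against 3.23% of all genes. Ms4a2 and Kit, 2 of the 10, had lower values in every IMQ+XYF library than in any VAS+H2O library, as had 10.3% of all genes. None had higher values in every one, as had 11.7%.

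Protease levels differed between libraries. Each of the other 6 genes was therefore also set against the geometric mean of Mcpt4, Cma1, Tpsb2 and Cpa3 in the same library. These 4 proteases themselves had lower means in IMQ+XYF than in IMQ+H2O, with log2 fold changes from -0.77 (Tpsb2) to -0.33 (Mcpt4). The ratio was chosen after the values above were seen. The share of all genes whose groups separate on this scale was not counted, so separations on it are descriptions only. Ms4a2 stood at 6.32%, 11.3% and 13.8% of this protease level in VAS+H2O, at 7.85%, 13.5% and 9.29% in IMQ+H2O and at 1.99%, 4.11% and 2.62% in IMQ+XYF. Its IMQ+XYF libraries remained clear of the others on this scale, though closer to them. Mrgprb2 had 3.69% to 4.43% in VAS+H2O, 4.49% to 5.21% in IMQ+H2O and 2.64% to 3.11% in IMQ+XYF, so that the 3 groups did not overlap. Fcer1a had 0.973% to 2.39%, 4.24% to 5.86% and 2.11% to 3.45% in the same order, with IMQ+H2O above both others.

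Tpsab1 was at 13.8% to 21.7% in VAS+H2O, 12.5% to 17.8% in IMQ+H2O and 9.33% to 12.8% in IMQ+XYF, with a small overlap between the last groups. Set against the other tryptase alone, Tpsab1 was at 26.2%, 34.9% and 23.7% of Tpsb2 in VAS+H2O, 23.6%, 17.9% and 25.2% in IMQ+H2O and 17%, 16.3% and 19.3% in IMQ+XYF. Kit overlapped in all groups, at 26.7% to 53.7%. Hdc was at 56.1% to 78.4% in VAS+H2O, 88.4% to 193% in IMQ+H2O and 86.8% to 148% in IMQ+XYF. Both imiquimod groups thus lay above vaseline. Neutrophils, whose markers were also higher in both imiquimod groups, make Hdc too, and their part in this ratio was not tested.

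**Figure D4:**
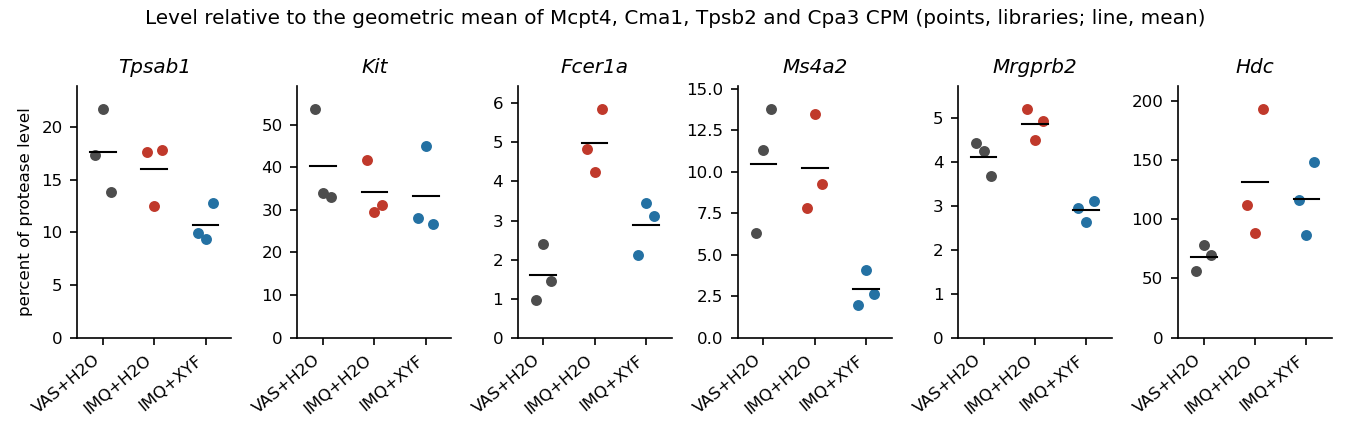
Level of 6 mast cell genes in each library as percent of the geometric mean CPM of Mcpt4, Cma1, Tpsb2 and Cpa3, with the group mean as a line. Ms4a2 and Mrgprb2 are lowest in all 3 IMQ+XYF libraries, Fcer1a is highest in all 3 IMQ+H2O libraries, and Hdc is lowest in all 3 VAS+H2O libraries. The share of all genes that separate in such a way on this scale was not counted.

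With the mean log2 CPM of these 4 proteases as a covariate in edgeR, Ms4a2 was at -1.57 ± 0.41 for IMQ+XYF against IMQ+H2O (adjusted p = 0.308), a smaller difference than without it, and Mrgprb2 at -0.77 ± 0.20 (adjusted p = 0.308). Fcer1a stayed at 1.63 ± 0.36 for imiquimod (adjusted p = 0.0645), and Ms4a2 was at -1.65 ± 0.40 for IMQ+XYF against VAS+H2O (adjusted p = 0.081). None of the 6 genes was called in this fit, in which 322, 0 and 266 of all genes were called for imiquimod, for XYF and for both against vaseline. Unadjusted p was under 0.05 in it for Fcer1a and Hdc with imiquimod, for Ms4a2, Mrgprb2 and Tpsab1 with XYF, and for these 3, Kit and Hdc for IMQ+XYF against VAS+H2O. Of all genes, 22.5%, 12% and 18.8% had such a p in this fit.

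In all, 8 lists with 79 further genes of mast cell biology were read beside the set, of which 70 were tested. For imiquimod, 4 were called by edgeR, all higher, and DESeq2 called 11 higher and 1 lower, beside 0.994% and 3.8% of all genes. Unadjusted p was under 0.05 for 18 higher and 2 lower, beside 20.9% of all genes, and the median was 0.24 against -0.023 over all genes. For XYF none was called by edgeR or by DESeq2, with unadjusted p under 0.05 for 4 higher and 9 lower, beside 11.7% of all genes, and a median of -0.31. For IMQ+XYF against VAS+H2O, edgeR called 1, higher, and DESeq2 7 higher and 1 lower, beside 1.2% and 3.23% of all genes. In that comparison 13 higher and 5 lower had an unadjusted p under 0.05, beside 18.3% of all genes, and the median was 0.05. Many of these genes are used by other blood cells too, so their levels are not mast cell levels.

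In IgE receptor signalling, 2 of 16 genes rose with imiquimod by edgeR, beside 0.994% of all genes called, and DESeq2 called Vav1, a signalling exchange factor, as well (adjusted p = 0.00514). Fcer1g, the signalling chain that FcεRI shares with other Fc receptors of myeloid cells, had 35.3, 43.5 and 36.8 CPM in VAS+H2O, 63.6, 108 and 97.4 in IMQ+H2O and 71.6, 58.9 and 72.2 in IMQ+XYF. It was 2.33 times higher with imiquimod (SE 0.19 on the log2 scale, adjusted p = 0.0292 by edgeR). Lcp2, the adaptor SLP-76, rose by 1.47 ± 0.28 (adjusted p = 0.0453). For XYF 14 of the 16 values were below 0, with unadjusted p under 0.05 for 4, beside 11.7% of all genes, and Gab2, a docking adaptor of mast cell signalling, had the lowest p (-0.45 ± 0.12, adjusted p = 0.364). In IMQ+XYF libraries Fcer1g was above every VAS+H2O library, as were 11.7% of all genes. Fcer1a overlapped them, and Ms4a2 was below every one, as were 10.3%. In this comparison edgeR called none of the 3 (adjusted p = 0.0708, 0.819 and 0.0848) and DESeq2 called Ms4a2 alone. The chains were not tested against each other.

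Among growth and activating cytokines, Il33, an alarmin of stromal and epithelial cells, rose with imiquimod by 2.39 ± 0.43, from 12.1, 18.2 and 22.2 CPM in VAS+H2O to 59.6, 91 and 126 in IMQ+H2O (adjusted p = 0.0407 by edgeR). It was also called for IMQ+XYF against VAS+H2O, at 2.21 ± 0.42 (adjusted p = 0.0431). Its receptor gene Il1rl1 had 5.6, 20.3 and 6.7 CPM in VAS+H2O, 12, 27.7 and 15.1 in IMQ+H2O and 8.01, 6.85 and 14 in IMQ+XYF and was called in no comparison (log2 fold change with imiquimod 0.75 ± 0.53, adjusted p = 0.448). Kitl, the ligand of Kit, had 41.4 to 79.5 CPM over all libraries and log2 fold changes of 0.18 ± 0.25 for imiquimod and -0.34 ± 0.25 for XYF. Tslp, an epithelial cytokine, had the lowest p of the list for XYF (1.03 ± 0.44, adjusted p = 0.419), with 2.03 to 3.13 CPM in IMQ+H2O and 2.22 to 8.8 in IMQ+XYF. Of the 8 cytokines, Il3 and Il9 were each counted in 1 library alone.

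Of 7 transcription factors, Spi1 (PU.1), a factor of myeloid cells at large, rose with imiquimod by 1.06 ± 0.18 (adjusted p = 0.0342 by edgeR). Gata2, a factor that mast cells need, had 41.2, 46 and 44.2 CPM in VAS+H2O, 43.2, 59 and 56.7 in IMQ+H2O and 26.4, 23 and 47.5 in IMQ+XYF. For XYF it had the lowest p of the list, at -0.71 ± 0.25 (adjusted p = 0.379 by edgeR), and the groups overlapped through IMQ+XYF replicate 3. Mitf had 7.32 to 39.4 CPM and -0.65 ± 0.42 for XYF (adjusted p = 0.545). The edgeR calls of Fcer1g, Lcp2, Spi1 and Il33 were lost in 5 to 6 of the 9 fits that left out 1 library, in each case without any 1 of the VAS+H2O libraries and without IMQ+H2O replicate 2 or 3, at adjusted p up to 0.162, with log2 fold changes from 0.93 to 2.63. The call of Il33 for IMQ+XYF against VAS+H2O was lost in 8 of the 9.

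Other granule proteases gave mixed values. Of 9 listed, 5 were tested. For imiquimod the median was -0.12, and none was called by edgeR. Ctsg, cathepsin G of neutrophils and mast cells, had 1.6, 1.72 and 1.54 CPM in VAS+H2O and 0.31, 0.655 and 0.293 in IMQ+H2O, a log2 fold change of -1.94 ± 0.43 (adjusted p = 0.0668 by edgeR, 0.00201 by DESeq2, which called it). For XYF it had the lowest p of the list, at 1.12 ± 0.43 (adjusted p = 0.387). Gzmb was at 2.62 ± 0.69 with imiquimod (adjusted p = 0.0944) and Mcpt8 at 3.93 ± 1.17 (adjusted p = 0.121), and DESeq2 called both. Mcpt8 rested on 10 counts in all of VAS+H2O.

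Granule storage and secretion genes were called in no comparison by edgeR, with medians of 0.10 for imiquimod and -0.09 for XYF over 13 genes. Srgn, the proteoglycan core that holds proteases in granules and is used by many blood cells, was at 1.31 ± 0.35 with imiquimod (adjusted p = 0.0961 by edgeR, 0.0071 by DESeq2, which called it). Vamp8, a fusion protein of granule release, had 43.1 to 51.7 CPM in VAS+H2O, 55.4 to 106 in IMQ+H2O and 97.3 to 111 in IMQ+XYF, and was at 1.11 ± 0.24 for IMQ+XYF against VAS+H2O (adjusted p = 0.0555 by edgeR, 0.000916 by DESeq2, which called it). Slc18a2 was at 0.10 ± 0.29 with imiquimod and -0.61 ± 0.29 with XYF (adjusted p = 0.442), close to Cpa3 in both.

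Of 11 other mast cell receptors, none was called by edgeR in any comparison, with medians of 0.70 for imiquimod and -0.53 for XYF. All 11 values for XYF were below 0. Milr1, allergin-1, an inhibitory receptor of mast cells and other myeloid cells, was at 1.14 ± 0.28 with imiquimod (adjusted p = 0.0817 by edgeR, 0.00386 by DESeq2, which called it). Cd33, a lectin, had 15.6 to 28.8 CPM in IMQ+H2O and 6.06 to 15.5 in IMQ+XYF, with the lowest p of the list for XYF (-1.17 ± 0.42, adjusted p = 0.38 by edgeR). For IMQ+XYF against VAS+H2O it was at -1.43 ± 0.43, lower in every library, and DESeq2 called it (adjusted p = 0.121 by edgeR, 0.0171 by DESeq2). With imiquimod DESeq2 also called Csf2rb, the shared chain of cytokine receptors (adjusted p = 0.0232), and Tacr1, the substance P receptor (adjusted p = 0.0354), both higher.

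In histamine handling beyond Hdc, 4 of 7 genes were tested and none was called by edgeR or DESeq2. Hnmt, which breaks histamine down by methylation, had 4.98 to 5.36 CPM in VAS+H2O and 1.82 to 3.63 in IMQ+H2O (-0.85 ± 0.25, adjusted p = 0.12 by edgeR). Hrh2, a histamine receptor, had means of 1.09 and 2.07 CPM in the same groups, and for XYF it was at -0.58 ± 0.36 (adjusted p = 0.54). Of 8 other mast cell mediator genes none was called by either tool in any comparison. Ltc4s, leukotriene C4 synthase, had the lowest p of these for XYF (0.51 ± 0.18, adjusted p = 0.379), Alox5ap for imiquimod (0.59 ± 0.27, adjusted p = 0.248) and Tph1, the serotonin-forming enzyme, for IMQ+XYF against VAS+H2O (0.79 ± 0.42, adjusted p = 0.366).

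**Figure D5:**
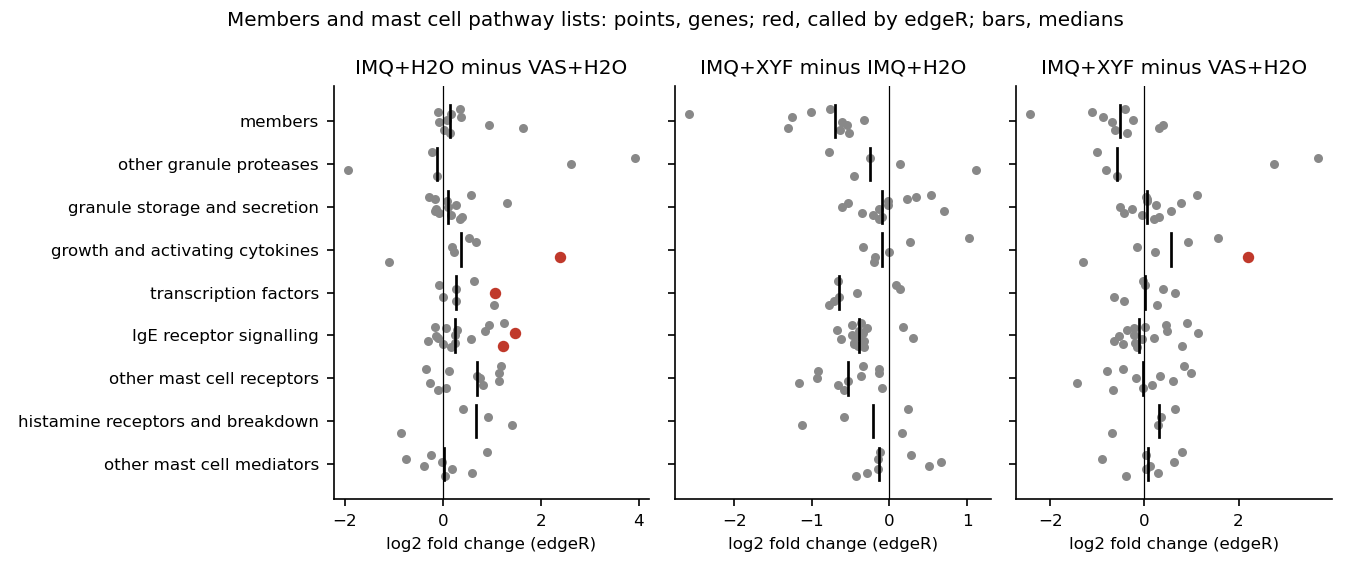
Log2 fold change of the 10 mast cell genes and of the tested genes of 8 mast cell pathway lists in the 3 comparisons, with a bar at each list's median. Red points, called by edgeR, are Il33, Spi1, Fcer1g and Lcp2 for imiquimod and Il33 for IMQ+XYF against VAS+H2O, and no point is red for IMQ+XYF against IMQ+H2O.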

How the data were processed

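Libraries of ear dermis were sequenced on an Illumina instrument. Per the study's methods, the authors aligned reads with STAR to GRCm38 (Ensembl release 90), assembled transcripts with StringTie and tested with DESeq2. The deposited table holds raw counts per gene, with no normalization. The submitters' processing notes also name FastQC and Cuffnorm. The counting tool, its treatment of shared reads and its use of the strand are not given in the sources used here.

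The genes were fitted in edgeR 4.0.16 (quasi-likelihood, R 4.3.3) over all 9 libraries in 3 groups, after edgeR's filter on low counts, with TMM scaling and Benjamini-Hochberg adjustment over 22430 genes. The common biological coefficient of variation was 29.6%. The fit was tested on simulated data. Alternatives were DESeq2 1.42.0, its size factors, no filter beyond 1 count, the 2 compared groups alone, replicate number as a block, each library left out, and the protease covariate, which was added after the values were seen. CPM are relative to TMM-scaled totals, per kb of merged GENCODE exons where stated. Log2 CPM used a prior count of 2. A floor of 3 counts per library equals 0.0376 to 0.104 CPM and covers counting error only.

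The members and lists were chosen with earlier results of these data known. Besides the members, genes were named by rule: those called in any comparison, the gene with the lowest p of each list and comparison, Kitl, Mitf, Gata2, Il1rl1, Mcpt8 and Prss34, and the 8 genes most like the set. Slc18a2 was picked up by the last. Other genes named were chosen after their values were seen.

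Whether same-numbered libraries deviate together was checked: their correlations ran from -0.183 to 0.125, so the numbers were not taken as pairs.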

Additional observations from a re-analysis of the deposited data

How the results depend on the processing

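No member was called by edgeR in any comparison or under any alternative fit of it. DESeq2 called 1 member in each: Fcer1a for imiquimod (log2 fold change 1.64) and Ms4a2 for XYF (-2.57) and for IMQ+XYF against VAS+H2O (-2.39). The edgeR count stayed at 0 without any 1 library in all 3 comparisons. DESeq2 was not refitted with a library left out. The median of the members, 0.15, -0.70 and -0.52 in the 3 comparisons, ran without 1 library from -0.26 to 0.45, from -1.06 to -0.40 and from -0.74 to -0.27, and so turned direction for imiquimod alone. Each move was smaller than the spread between libraries of a group (0.53). Leaving out 1 of 3 libraries can hardly move a group mean that far, so this says little about stability.

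Of 438 values of single members under the alternatives, 414 kept their direction and their side of the threshold, 3 were newly called, as above, and 21 turned direction. With the replicate number as a block, Cpa3 for imiquimod was at -0.02, and the calls of Fcer1g (adjusted p = 0.0639), Lcp2 (0.0967) and Spi1 (0.0861) for imiquimod and of Il33 for IMQ+XYF against VAS+H2O (0.061) were lost. The block gave 86, 0 and 54 calls over all genes in place of 223, 2 and 270. With the protease level as covariate, Ms4a2 for imiquimod was at -0.08. With only the 2 groups compared, the call of Il33 for IMQ+XYF against VAS+H2O was lost (adjusted p = 0.0913), and all genes gave 496, 1 and 33 calls. DESeq2 gave 952, 222 and 722.

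Without 1 library at a time, the values for imiquimod ran from -0.42 to 0.31 for Mcpt4, -0.21 to 0.39 for Cma1, -0.07 to 0.59 for Tpsb2, -0.34 to 0.36 for Tpsab1, -0.51 to 0.28 for Cpa3, -0.39 to 0.10 for Kit and -0.66 to 0.50 for Ms4a2. For XYF, Mcpt4 ran from -0.56 to 0.17. For IMQ+XYF against VAS+H2O, Mcpt4 ran from -0.49 to 0.01, Fcer1a from -0.08 to 0.96 and Hdc from -0.09 to 0.76. The cause was not tested. Fcer1a in VAS+H2O rested on as few as 20 counts in a library.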
